A study of Mus musculus with 10 samples.

Results

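The response of tumour-associated macrophages (TAM) to lipopolysaccharide (LPS) was measured directly on 2 of the 10 mouse cDNA arrays of the series, named TAM-trial and TAM-16. On such 2-colour arrays each spot is hybridised with labelled RNA of a pair of conditions at once, and the ratio of the colours is recorded. Channel 1 held RNA of untreated TAM and channel 2 held RNA of TAM kept with 100 ng/mL of LPS for 4 hours, and both arrays were chosen by those labels alone. TAM were adherent cells in culture, taken 3 weeks after a tumour was implanted into C57/6N mice aged 8 weeks, so the untreated TAM came from tumours as well. The 2 arrays set beside them, PEC1 and PEC2, compared peritoneal exudate cells (PEC) given the same LPS dose and time with untreated PEC. The age given for the PEC arrays was 8 weeks as well. The labels used here do not name the tumour and do not say whether arrays came from separate mice or cultures, so p-values measure the spread between arrays, which may be technical. In these bulk samples, fewer cells of a type and less RNA per cell cannot be told apart.

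LPS is a component of the outer membrane of Gram-negative bacteria. Macrophages sense it through TLR4, which signals by MyD88 to the transcription factor NF-kB and the MAP kinases, and by TRIF to IRF3 and the interferon genes. Within hours a macrophage makes inflammatory cytokines, chemokines and inducible nitric oxide synthase, and it also makes inhibitors that end the response. TAM are often described as polarised away from this programme, towards the alternatively activated or M2 state.

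All values below are log2 ratios of LPS over untreated cells, as deposited, so 1 is a 2-fold higher and -1 a 2-fold lower signal with LPS. A ratio carries no level, so the macrophage identity of the TAM could be looked at only as differences. Both TAM arrays, like both PEC arrays, carried the LPS sample in channel 2, so within these arrays an effect of the dye on a gene and an effect of LPS cannot be told apart. A fit with a dye term takes that effect from TAM-2R and TAM1, the arrays of other comparisons on which the channels were exchanged, and values of it are given beside some of the genes. Features of 1 gene were averaged, which gave 6795 genes with 1 symbol. The arrays differed in make: TAM-trial was of print version v9p2, TAM-16 and PEC2 of v3p6 and PEC1 of v1p1. TAM-trial thus shared its print with neither PEC array. Over the 6795 genes their ratios correlated at r = 0.10, a description of genes that share arrays and not a test. TAM-trial correlated more with some arrays that compared TAM with PEC, at r = 0.51 with TAM-8 (untreated) and 0.42 with TAM7 (both with LPS). With TAM-b (untreated) it correlated at 0.36. TAM-8 and TAM7 are of the print of TAM-trial, and TAM-b is of the print of TAM-16. With position effects subtracted the values were 0.38 with TAM-8, 0.41 with TAM7 and 0.14 with TAM-b. The part of print in these values, and in differences between TAM and PEC, was not tested. With PEC1 and PEC2 TAM-trial correlated at -0.07 and 0.01, while TAM-16 correlated at 0.18 with each. The spread of ratios, as a scaled median absolute deviation, was 1.06 on TAM-trial and 0.69 on TAM-16. Position effects made up 33.4% of the variation of ratios on TAM-trial and 10.8% on TAM-16. Once they were subtracted, the correlation of TAM-trial with TAM-16 went from 0.10 to 0.03. The median ratio was -0.01 on TAM-trial and -0.20 on TAM-16. Gene lists below are therefore given relative to the median of all named genes on the same array, except where stated.

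The deposited ratios also held pile-ups of the kind that dim spots give. On TAM-16, 120 of 9596 features had the value 0.005 exactly, 36 lay exactly 1 below it and 10 exactly 1 above it. These are the steps that ratios of 1, 1 to 2 and 2 to 1 between small whole-number signals give on a log2 scale after 1 constant shift. On TAM-trial the most frequent value, -0.176, held 27 features. Values that lay within 0.001 of a whole-number ratio, from 2 to 32, of the most frequent value are called whole-number ratios below. They made up 1.97% of the named genes on TAM-16 and 0.912% on TAM-trial.

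No gene passed limma's test of the TAM response across all 10 arrays (0 of the 8905 named genes and unnamed spots tested, with 0% called higher and 0% lower). In the same test 497 had an unadjusted p under 0.05, of which 80 were higher and 417 lower. With each array centred on its median, 129 were higher and 269 lower at that unadjusted p. The lowest adjusted p was 0.145, for Ccl5 and for Pnn. Without TAM-16, 3 passed, Zfp764 and 2 unnamed features. What follows is therefore a description of what both arrays share. At least 2-fold higher on both were 76 genes, 1.12% of those named, and at least 2-fold lower on both were 131 genes, 1.93%. The higher genes made up 36.7% of these shared genes, but 59.8% once each array was centred on its median and 55.1% once the arrays were also brought to 1 scale. With centring the counts were 110 higher and 74 lower. Another 132 genes passed the same size in opposite directions. Alone, TAM-trial had 1023 genes at least 2-fold higher and 1211 lower, and TAM-16 had 251 and 703. Of the genes higher on TAM-trial, 7.43% were also higher on TAM-16, against 3.69% of all named genes. Of those lower on TAM-trial, 10.8% were also lower on TAM-16, near the 10.35% of all named genes. Once centred, the shares were 10.7% against 6.196% for higher genes and 6.208% against 6.225% for lower genes. Lower genes were thus shared about as often as among all named genes. The scatter of both arrays shows the shared corners as thin beside the spread of TAM-trial alone.

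**Figure D1:**
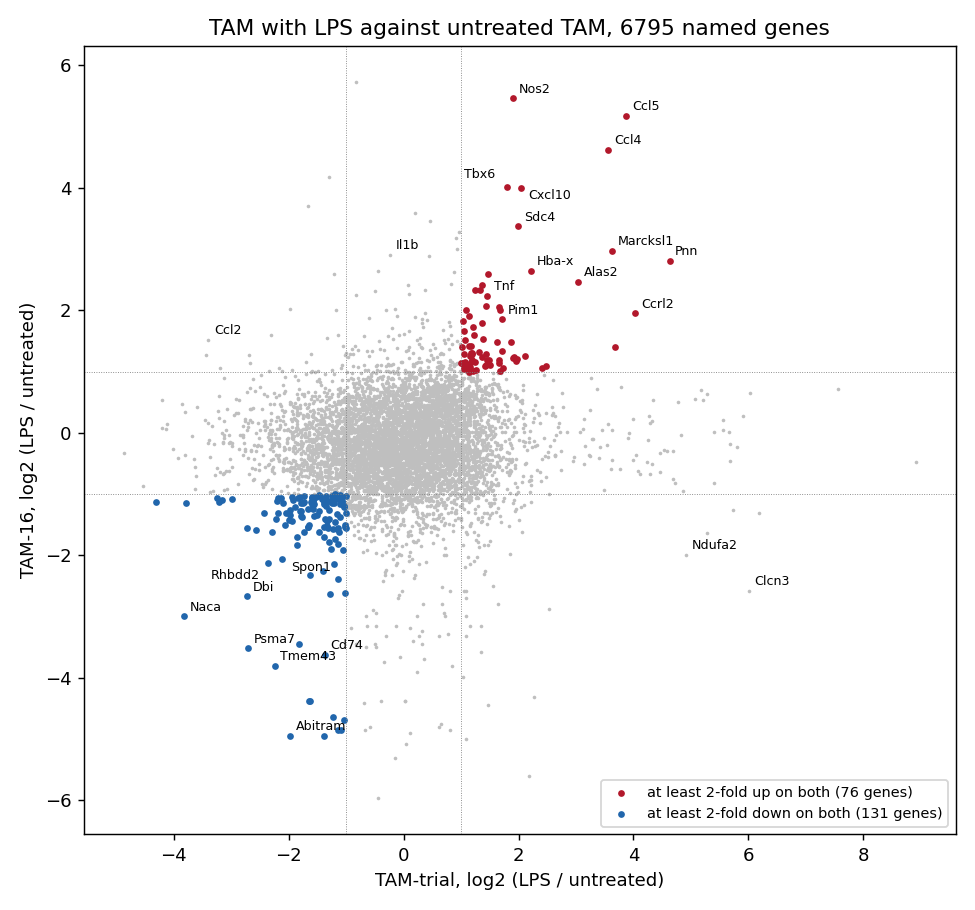
Log2 ratios (LPS over untreated TAM) of 6795 named genes on TAM-trial (horizontal) and TAM-16 (vertical); dotted lines mark 2-fold. The 76 red genes, among them Ccl5, Ccl4 and Marcksl1, were at least 2-fold higher on both arrays and the 131 blue genes at least 2-fold lower on both.

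The shared higher genes were also set against PEC1 and PEC2, which had no part in choosing them. Of the 76, 53 lay above 0 on both PEC arrays (69.7%, against 31.9% of all named genes), and 23 were at least 2-fold higher on both (30.3% against 5.61%). Of the 131 lower genes, 78 lay below 0 on both PEC arrays (59.5% against 31.3%), but only 1 was at least 2-fold lower on both (0.763% against 0.486%). All 4 arrays had LPS in channel 2, so these shares hold any effect of the dye as well. A second route to the same quantity, built from the other 8 arrays (TAM over PEC with LPS, plus PEC with LPS over PEC, minus TAM over PEC), gave values above 0 for 53 of the 76 and 52 of the 131, against 50.7% of all named genes. Over all named genes this route and the mean of TAM-trial and TAM-16 correlated at r = 0.04.

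The 12 genes highest on both TAM arrays included the chemokines Ccl5, Ccl4 and Cxcl10 and 4 further members of the NF-kB list, Nos2, Marcksl1, Sdc4 and Ccrl2. Ccl5, a chemokine for T cells and monocytes, read 3.88 on TAM-trial and 5.18 on TAM-16, and 4.20 and 4.50 on PEC1 and PEC2. Its mean in TAM was 4.53 ± 0.92 (SD, n = 2), a 23.1-fold higher signal, with limma's adjusted p at 0.145. The TAM and PEC values overlapped, and the difference of TAM minus PEC was 0.18 with a standard error of 0.89. Ccl4, whose product MIP-1 beta recruits monocytes and lymphocytes, read 3.56 and 4.62 in TAM against 3.54 and 6.38 in PEC. It was thus as high on TAM-trial as on PEC1, with PEC2 above all others. Cxcl10, an interferon-induced chemokine for activated T cells, read 2.05 and 4.00 in TAM and 2.97 and 5.02 in PEC, so that TAM-trial was lowest and PEC2 highest.

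Nos2, the inducible nitric oxide synthase that marks classical activation, read 1.91 on TAM-trial and 5.47 on TAM-16, against 3.37 and 3.77 in PEC. TAM-16 held the highest of the 4 values and TAM-trial the lowest. The mean of 3.69 ± 2.52 (SD, n = 2) carried an adjusted p of 0.828 in limma. Marcksl1, a substrate of protein kinase C that macrophages make after LPS, read 3.63 and 2.97, close to the 3.31 and 3.80 of PEC. The Marcksl1 value on TAM-trial was a whole-number ratio, 14 to 1. Sdc4, a cell surface proteoglycan, read 1.997 and 3.374 in TAM and 2.99 and 4.27 in PEC. Ccrl2, a receptor that binds chemerin without signalling, was the reverse in order, with 4.03 on TAM-trial and 1.95 on TAM-16 against 1.68 and 3.14. Pim1, a serine/threonine kinase, was the most even of the leading genes in TAM, at 1.71 and 1.85, and read 1.76 and 3.13 in PEC. With a dye term in the fit the TAM mean of Ccl5 was 3.70, while that of Ccl4 went from 4.09 to 2.37, of Ccrl2 from 2.99 to 1.15 and of Pim1 from 1.78 to 1.11. All 12 highest genes kept a mean above 0 with dye terms, in the loop fit and after centring, scaling and subtraction of position effects.

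The promoters of Cxcl10, Sdc4 and Ccrl2 are shown as examples. They were picked for matches to the NF-kB consensus among leading genes higher with LPS on all 4 arrays. Each window runs from 250 bases before to 50 bases after the start of transcription, from RefSeq on GRCm38.p6, written 5′ to 3′ on the gene's own strand. Capitals mark matches on either strand to the degenerate NF-kB consensus and to GAAANNGAAA, a pattern of interferon-stimulated response elements.
Cxcl10, chr5:92348840-92349139, minus strand: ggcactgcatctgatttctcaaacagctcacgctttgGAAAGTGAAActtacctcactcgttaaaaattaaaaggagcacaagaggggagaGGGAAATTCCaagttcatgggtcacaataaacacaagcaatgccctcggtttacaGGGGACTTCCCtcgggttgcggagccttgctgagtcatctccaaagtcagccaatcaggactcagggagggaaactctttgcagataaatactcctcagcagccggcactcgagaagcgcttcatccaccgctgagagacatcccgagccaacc
Sdc4, chr2:164443139-164443438, minus strand: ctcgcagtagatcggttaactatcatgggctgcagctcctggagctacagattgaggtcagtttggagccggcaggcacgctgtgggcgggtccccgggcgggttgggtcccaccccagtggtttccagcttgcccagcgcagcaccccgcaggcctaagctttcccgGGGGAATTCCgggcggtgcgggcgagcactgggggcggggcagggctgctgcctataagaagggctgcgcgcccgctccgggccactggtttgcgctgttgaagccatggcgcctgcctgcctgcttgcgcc
Ccrl2, the first of 3 listed starts, chr9:111057469-111057768, minus strand: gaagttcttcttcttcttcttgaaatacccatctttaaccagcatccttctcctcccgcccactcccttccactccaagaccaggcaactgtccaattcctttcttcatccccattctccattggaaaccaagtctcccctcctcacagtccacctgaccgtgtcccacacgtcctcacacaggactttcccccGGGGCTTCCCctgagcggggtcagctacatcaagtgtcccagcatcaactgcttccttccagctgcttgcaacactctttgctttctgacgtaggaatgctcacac

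The Cxcl10 window held GAAAGTGAAA at 213 bases before the start, GGGAAATTCC at 159 bases, and the overlapping pair GGGGACTTCC and GGGACTTCCC at 104 and 103 bases. The Sdc4 window held GGGGAATTCC at 82 bases before the start and the Ccrl2 window held GGGGCTTCCC at 56 bases. Of the 12 highest genes, 9 had a promoter entry and 4 of these held the NF-kB consensus in at least 1 window. The fourth is Tbx6, whose window is not shown. Of the 12 lowest genes, 11 had an entry and 2 held it, and 8.46% of all 32851 windows did. For GAAANNGAAA the counts were 1 of 9, 0 of 11 and 3.44%. Both percentages are shares of windows, while the counts are of genes, which may have several windows, so they are not alike. Ccl5, Ccl4 and Nos2 had no entry in the promoter table. Marcksl1, Alas2, Hba-x and Pim1, also higher with LPS on all 4 arrays, held no match to either pattern. The windows of Tnf and Icam1, of the NF-kB list and higher on all 4 arrays too, were looked up and held none. These matches are letters in a window and not measured sites.

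The other leading genes were not macrophage inflammatory genes by name. Alas2, the erythroid enzyme of haem synthesis, read 3.04 and 2.47 in TAM and 2.78 and 2.96 in PEC. Hba-x, an embryonic globin, read 2.22 and 2.65 in TAM and 1.82 and 2.20 in PEC, and its feature lies 2 feature numbers from that of Marcksl1, with r = 0.94 between them over the 10 arrays. Tbx6, a transcription factor of early mesoderm, read 1.80 and 4.02, almost the values of Cxcl10, whose feature is again 2 numbers away (r = 0.985). Over all feature pairs 2 numbers apart the median r was 0.16, and 0.667% of pairs were above 0.9. Whether these spots carry the genes they are named for was not tested. The erythroid and platelet list, of which 7 genes were measured, had a median 0.68 above that of all genes on TAM-trial and 0.64 on TAM-16, the latter going to 0.11 once position effects were subtracted. With a dye term the mean of Hba-x went from 2.43 to 1.36. Alas2 was the only member 2-fold higher on both.

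Pnn, which encodes pinin, a protein of desmosomes and splicing speckles, stood apart from PEC. It read 4.63 on TAM-trial and 2.81 on TAM-16, against -0.36 and -0.44 on the PEC arrays. Its adjusted p was 0.145 for TAM alone, and 0.505 for the difference of 4.12 between TAM and PEC (limma, standard error 0.70). After scaling of the arrays Pnn alone passed the test in TAM, with an adjusted p of 0.0153. Both of its TAM values were whole-number ratios, 28 to 1 on TAM-trial and 7 to 1 on TAM-16, the pattern described above. The part of signal strength in this result was not tested.

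**Figure D2:**
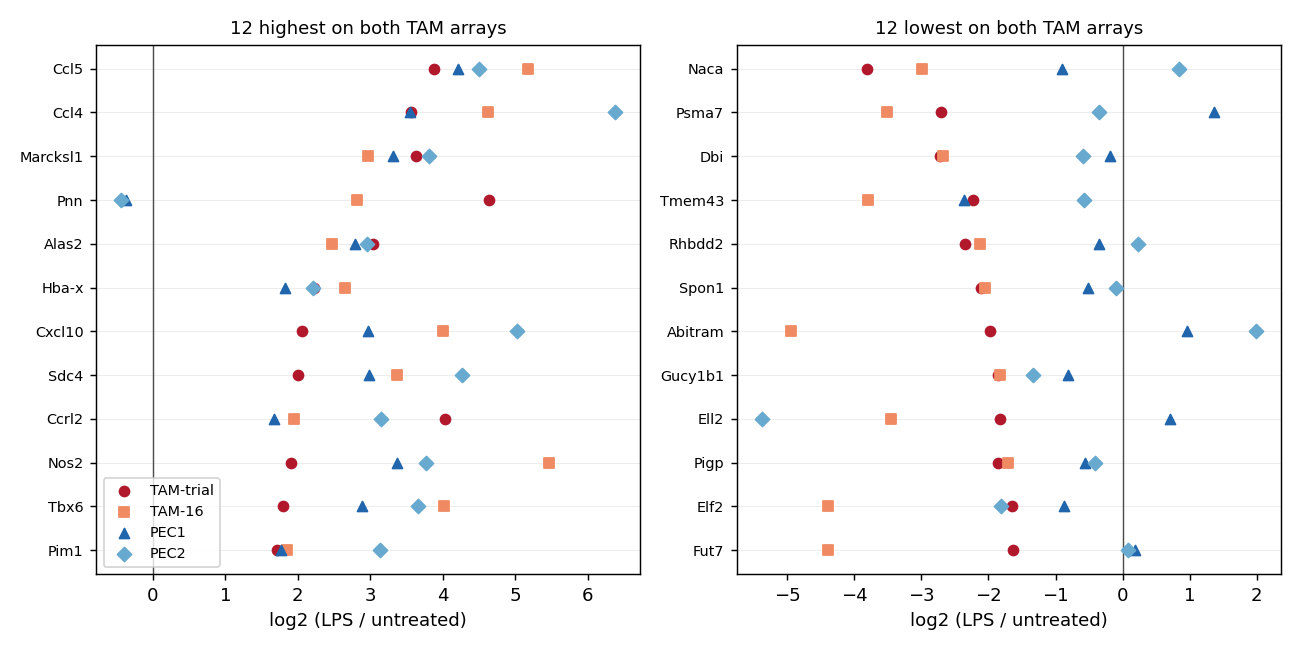
Log2 ratios (LPS over untreated, horizontal) of the 12 highest and 12 lowest genes of both TAM arrays, 1 point per array. The highest genes lie above 0 on both PEC arrays too, except Pnn. Of the lowest genes, which were chosen for low TAM values, 9 lie below both PEC arrays on both TAM arrays, where 27.7% of all named genes do.

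Among the 12 highest genes 11 were at least 2-fold higher on both PEC arrays, Pnn being the exception. Both TAM values lay below both PEC values for none of the 12. These genes were chosen for high TAM values, so this count does not compare TAM with PEC. The second route through the other arrays gave 9 of these 12 a value above 0, with Pnn (-0.15), Cxcl10 (-0.46) and Tbx6 (-0.94) below it. Along that route Ccl5 read 1.502, Ccl4 3.35, Nos2 2.98 and Sdc4 2.48.

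The 29 measured genes of the NF-kB inflammatory list were higher as a group on both TAM arrays. Their median lay 0.52 above that of all genes on TAM-trial and 1.62 on TAM-16, against 2.0 on PEC1 and 2.37 on PEC2. Above the median of all genes on both TAM arrays were 20 of the 29, and 4 were below it on both. At least 2-fold higher on both TAM arrays were 9 of 29, where 1.12% of all named genes were: Ccl4, Ccrl2, Marcksl1, Nos2, Sdc4, Tnf, Cd40, Icam1 and Traf1. The direction of the list held on both arrays after centring, scaling and subtraction of position effects. None of these genes passed limma's test.

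Tnf, the first cytokine of the response, read 1.45 on TAM-trial and 2.24 on TAM-16, and 2.20 and 4.95 on the PEC arrays. TAM-16 thus reached PEC1 but no TAM array reached PEC2. Cd40, the co-stimulatory receptor through which T cells activate macrophages, read 1.36 and 2.41 in TAM and 2.12 and 3.44 in PEC. Icam1, an adhesion molecule for leukocyte integrins, read 1.38 and 1.54 in TAM, with 1.12 and 2.98 in PEC on either side. Traf1, an adaptor of TNF receptors, was lower in TAM (1.13 and 1.42) than in PEC (1.83 and 2.19), with no overlap.

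Inhibitors of NF-kB and TLR signalling were higher too, with medians 0.54 and 1.09 above all genes and 10 of 14 members above on both arrays. Nfkbib, which holds NF-kB in the cytoplasm, read 3.68 and 1.40 in TAM and 2.33 and 2.63 in PEC. Tnip1, a partner of the deubiquitinase A20, read 1.21 and 1.73, below the 1.98 and 2.60 of PEC. Socs1, which blocks cytokine receptor signalling, read 1.06 and 1.67 in TAM and lay between those values in PEC, at 1.24 and 1.33. Nfkbia, encoding I-kappa-B-alpha, differed between the TAM arrays: it read 0.01 on TAM-trial and 1.62 on TAM-16, and 2.31 and 3.70 in PEC. Its TAM values both lay below both PEC values. Socs3 showed the same order, at 0.82 and 2.42 in TAM against 2.59 and 4.83 in PEC, and with a dye term its TAM mean went from 1.62 to 0.43.

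The 39 measured interferon-response genes were 0.10 above all genes on TAM-trial and 0.92 on TAM-16. On TAM-trial this median turned to -0.11 once position effects were subtracted, while TAM-16 stayed at 0.76. At least 2-fold higher on both were Cxcl10, Socs1 and Stat3. Stat3, the transcription factor downstream of IL-6 and IL-10 receptors, read 1.43 and 2.07 in TAM and 0.83 and 2.04 in PEC. Daxx, a chromatin protein induced by interferon, read 0.98 and 1.45 in TAM and was higher on both PEC arrays (1.84 and 3.15). Irf7, which amplifies type I interferon, read 1.48 and 0.30 against 1.87 and 3.22. Irf1 read 0.44 and 0.88 against 1.03 and 1.97, and its TAM mean went from 0.66 to -0.12 once position effects were subtracted. In Irf7 and Irf1 both TAM values lay below both PEC values.

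Of the 25 measured chemokines, 11 were above the median of all genes on both TAM arrays and 3, Ccl4, Ccl5 and Cxcl10, were at least 2-fold higher on both. The list medians lay 0.22 and 0.37 above all genes, the value on TAM-trial turning to -0.09 once position effects were subtracted. Ccl3, encoding MIP-1 alpha, read 0.97 on TAM-trial and 3.28 on TAM-16 against 3.63 and 6.26 in PEC, so TAM lay below PEC throughout, and its TAM mean went from 2.13 to 0.93 with a dye term. Ccl2, the main monocyte chemokine, was lower with LPS on TAM-trial (-3.40) and higher on TAM-16 (1.52), with 1.05 and 3.62 in PEC. Ccl7, a related monocyte chemokine, read -1.83 and -0.02 in TAM and 1.48 and 0.71 in PEC. With a dye term the TAM means of Ccl2 and Ccl7 turned from -0.94 and -0.93 to 0.45 and 0.56. Cxcl9, an interferon-gamma target, was near 0 on all 4 arrays, between -0.21 and 0.20. Among the 24 receptors of chemokines and cytokines, Ccr7, which guides activated dendritic cells to lymph nodes, read 1.97 and 1.20 in TAM and 1.68 and 1.47 in PEC. Il1r1 read 1.26 and 0.64, and Il2ra -1.10 and -0.85.

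The inflammatory and macrophage genes set out as a panel number 31 among the measured genes. In TAM, 19 were above 0 on both arrays and 6 were at least 2-fold higher on both: Ccl5, Ccl4, Cxcl10, Nos2, Tnf and Cd40. In PEC, 25 were above 0 on both arrays and 23 were at least 2-fold higher on both. Both TAM values lay below both PEC values for 16 of the 31, where 27.7% of all named genes did so, and above both for 0, where 13.2% of all did. The difference of TAM minus PEC was tested in limma and 0 of 8905 genes and features passed (0%), with 612 at an unadjusted p under 0.05. Without PEC1 47 passed, without PEC2 19, without TAM-16 1, and with a dye term for each print 35. Within the panel the adjusted p of this difference ran from 0.719 to 0.998. TAM-trial was below TAM-16 for 22 of the 31. TAM-trial lay below both PEC arrays for 23 of them and TAM-16 for 18.

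**Figure D3:**
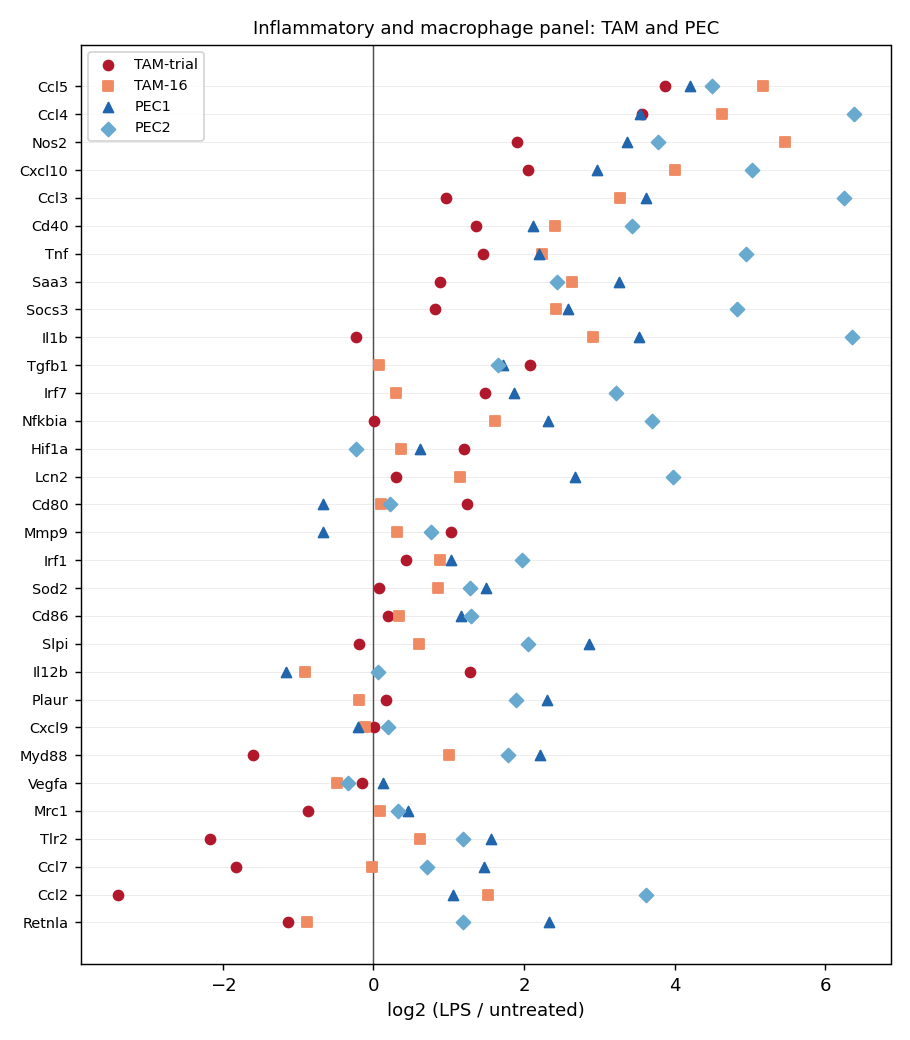
Log2 ratios (LPS over untreated, horizontal) of the 31 measured panel genes on both TAM and both PEC arrays, ordered by the mean of the TAM arrays. For 16 genes, among them Ccl3, Socs3, Il1b, Nfkbia, Lcn2 and Plaur, both TAM points lie to the left of both PEC points.

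Il1b showed the widest gap between TAM and PEC among the cytokines and chemokines of the panel. This central cytokine of inflammation read -0.23 on TAM-trial and 2.91 on TAM-16, against 3.53 and 6.36 on PEC1 and PEC2. The mean difference of -3.60 had a standard error of 1.63 and an adjusted p of 0.724 in limma. With a dye term the TAM mean of Il1b went from 1.34 to 0.50. Plaur, the urokinase receptor, was flat in TAM, at 0.16 and -0.20, and high in PEC, at 2.30 and 1.90. Its difference was -2.12 with a standard error of 0.58 and an adjusted p of 0.719. Slpi, a protease inhibitor made by macrophages after LPS, read -0.19 and 0.61 in TAM against 2.86 and 2.06 in PEC. Lcn2, which binds bacterial siderophores, read 0.30 and 1.15 against 2.68 and 3.98. In each of Plaur, Slpi and Lcn2 the TAM and PEC values did not overlap.

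Tlr2 and Myd88 were lower with LPS on TAM-trial and higher on TAM-16. Tlr2, a receptor of bacterial lipoproteins, read -2.17 and 0.62, and 1.56 and 1.19 in PEC. Myd88, the adaptor of most Toll-like receptors, read -1.602 and 1.001, and 2.21 and 1.79 in PEC. Neither direction was shared by the TAM arrays, while both stayed below PEC. The wider list of 25 TLR, MAP kinase and NF-kB signalling genes had medians of -0.19 and 0.71 relative to all genes, with 12 and 21 of the 25 above the median of all genes. None of its members was 2-fold higher on both, and Fos, a subunit of AP-1, was 2-fold lower on both (-1.35 and -1.03), with 0.64 and -0.26 in PEC. Ikbkb, a kinase that activates NF-kB, read -0.70 on both, as the mean of 2 features that differed on TAM-trial (0.09 and -1.50). Mapkapk2, a kinase of the p38 pathway, read 0.79 and 0.94 in TAM and -5.29 and -1.57 in PEC.

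Saa3, an acute-phase protein of macrophages, read 0.89 and 2.63 in TAM and 3.26 and 2.44 in PEC, so the ranges overlapped. Sod2, the mitochondrial superoxide dismutase, read 0.07 and 0.86 against 1.501 and 1.285. Cd86, a co-stimulatory ligand, read 0.19 and 0.33 in TAM and 1.16 and 1.30 in PEC. For Sod2 and Cd86 both TAM values were below both PEC values, and both TAM means turned below 0 once position effects were subtracted (-0.17 and -0.54). Cd80, the partner of Cd86, read 1.24 and 0.10 in TAM, with -0.67 and 0.22 in PEC. Il12b, the shared subunit of IL-12 and IL-23, had opposite signs on the TAM arrays (1.28 and -0.91). Tgfb1, encoding an anti-inflammatory cytokine, read 2.08 and 0.07 against 1.72 and 1.65, and its TAM mean turned from 1.08 to -0.26 with a dye term. Mmp9, a gelatinase, read 1.02 and 0.31, and Hif1a, the hypoxia-inducible factor, 1.20 and 0.37.

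The 22 measured M2 genes had medians 0.54 below all genes on TAM-trial and 0.04 below on TAM-16, with 0.72 and 0.17 above in PEC, and the value on TAM-16 turned to 0.08 once position effects were subtracted. Below the median of all genes on both TAM arrays were 10 of the 22 and above it on both were 5. Retnla, encoding FIZZ1 and a hallmark of M2 mouse macrophages, read -1.14 and -0.89 in TAM and 2.34 and 1.19 in PEC. Its difference of -2.77 had a standard error of 0.91 and an adjusted p of 0.719 in limma. Other settings did not keep this direction in TAM: the loop fit gave 0.045 and the second route through the other arrays 2.69. Mrc1, the mannose receptor, read -0.87 and 0.08 against 0.45 and 0.33. Stab1, a scavenger receptor, read -1.18 and -0.71, F13a1, a transglutaminase of M2 cells, -0.68 and -1.25, and Socs2 -0.84 and -1.05. These 3 genes were lower with LPS on both TAM arrays and lay between -0.30 and 0.78 in PEC.

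Of the 23 measured genes of lipid handling, 2 were at least 2-fold lower on both TAM arrays, where 1.93% of all named genes were. Lpl, lipoprotein lipase, read -1.39 and -1.54 in TAM and 0.39 and 0.13 in PEC. Nr1h3, encoding the sterol receptor LXR alpha, read -1.24 and -1.04 in TAM and 0.13 and -0.23 in PEC. Fabp4, a fatty acid carrier of macrophages, read -0.62 and -1.15 against 0.94 and 1.81. The TAM and PEC values of all 3 did not overlap, but these genes were picked for large shared TAM values. Both TAM values lay below both PEC values for 11 of the 23 genes, against 27.7% of all named genes. The list of 23 genes as a whole was 0.60 below all genes on TAM-trial and 0.05 above on TAM-16, which turned to -0.17 once position effects were subtracted.

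Of the 19 genes of hypoxia and glycolysis, 9 were below the median of all genes on both TAM arrays and 3 above it on both. The medians were -0.39 and -0.06 relative to all genes, against 0.57 and 0.30 in PEC, and the value on TAM-16 turned to 0.11 with position effects subtracted. P4ha2, a collagen prolyl hydroxylase, was 2-fold lower on both (-1.08 and -1.12), and read -0.37 and -0.60 in PEC. Ldhb read -1.81 and -0.68. Both TAM values lay below both PEC values for 12 of the 19 genes, against 27.7% of all.

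The genes lowest on both TAM arrays came from many functions. Naca, a chaperone of nascent chains on the ribosome, read -3.816 on TAM-trial and -2.995 on TAM-16, against -0.91 and 0.85 in PEC (the latter the most frequent value of PEC2), and the route through the other arrays gave -3.36. Psma7, a proteasome subunit, read -2.70 and -3.52 against 1.36 and -0.35. Dbi, an acyl-CoA binding protein, read -2.72 and -2.67 against -0.19 and -0.59, and was among the most even genes in TAM (SD 0.04, n = 2). Tmem43, a protein of the nuclear membrane, read -2.24 and -3.80 against -2.37 and -0.58. Of these 4, which were chosen for low TAM values, Tmem43 alone overlapped PEC.

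The other genes of the 12 lowest were Rhbdd2, Spon1, Abitram, Gucy1b1, Ell2, Pigp, Elf2 and Fut7. Rhbdd2 read -2.35 and -2.12 in TAM, the extracellular matrix gene Spon1 -2.11 and -2.06, and Gucy1b1, a subunit of soluble guanylate cyclase, -1.86 and -1.83. Pigp, of the GPI-anchor pathway, read -1.86 and -1.70. All 4 of them, chosen for low TAM values, were lower on both TAM arrays than on either PEC array, as were 27.7% of all named genes. With a dye term Psma7 went from -3.11 to -1.99, Rhbdd2 from -2.24 to -1.02 and Gucy1b1 from -1.85 to -1.06, and all 12 lowest genes kept a mean below 0 under the settings named for the highest. Abitram read -1.97 and -4.95 in TAM and 0.95 and 1.99 in PEC, where the value on PEC1 was that array's most frequent one, 0.954, held by 69 features, and Fut7, a fucosyltransferase that makes selectin ligands, -1.63 and -4.39 against 0.19 and 0.08. Elf2, an ETS factor, read -1.65 and -4.39, and Ell2, an elongation factor, -1.82 and -3.45 with 0.70 and -5.38 in PEC. On TAM-16 the values of 6 of the 12 were whole-number ratios, such as 1 to 8 for Naca, 1 to 21 for both Elf2 and Fut7 and 1 to 31 for Abitram. None of the 12 had such a value on TAM-trial. Of the 131 shared lower genes, 13 were at such a ratio on TAM-16 (9.92%, against 10.38% of all genes at least 2-fold lower there). So were 9 of the 76 shared higher genes (11.8%, against 11.95% of all genes at least 2-fold higher there). Such ratios start at 2 to 1, so sets of 2-fold changes hold more of them than all named genes (1.97%) by construction. The second route placed 9 of the 12 lowest genes below 0, with Psma7, Abitram and Gucy1b1 above it.

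Other lower genes shared by both arrays were found in the lists. Cd74, the invariant chain of MHC class II, read -1.37 on TAM-trial and -3.63 on TAM-16, against 0.95 and 5.98 in PEC, the value on PEC1 again being that array's most frequent one. Tpi1, of the hypoxia and glycolysis list, held exactly the same 0.954 and 5.976 on PEC1 and PEC2. Whether the Cd74 values in PEC came from dim spots was not tested. The spots named H2-Ea and H2-Ob, of the antigen presentation pathway of Cd74, read -2.29 and -0.91, and -1.38 and -0.34. Whether the H2-Ea spot measured transcripts of that gene in these mice was not tested. Of the 9 measured class II genes, 4 were below the median of all genes on both TAM arrays and 1 was above it. Adam8, a metalloprotease of leukocytes, read -2.99 and -1.08 in TAM and 0.41 on both PEC arrays. Pdia3, a chaperone of MHC class I loading, read -3.78 and -1.14 against 0.43 and -0.63. Etf1, the translation release factor, was even at -1.66 and -1.53 against 0.26 and -0.31. No overlap with PEC was seen for Adam8, Pdia3 or Etf1, which were picked for large shared TAM values. Of all named genes, 27.7% had both TAM values below both PEC values.

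Genes of abundant housekeeping machinery separated the TAM arrays. The 26 measured ribosomal protein genes had a median 2.02 below all genes on TAM-trial and 0.33 above on TAM-16, with 2.21 and 1.38 above in PEC. Above the median of all genes were 3 of the 26 on TAM-trial and 25 on TAM-16. Among the arrays that compared TAM with PEC, the medians were -0.59 on TAM-8 and -0.96 on TAM7, of the print of TAM-trial, and -1.30, 0.11, 0.22 and 0.71 on TAM1, TAM-b, TAM-2R and TAM-3, of the other print. These are ratios of TAM over PEC and not of LPS over untreated cells, and TAM1 and TAM-2R had exchanged channels. The medians are also not relative to all named genes, whose own medians on these arrays lay between -0.125 and 0.058. The part of print in the split was not tested. Oxidative phosphorylation (35 genes) read -0.95 and 0.23 relative to all genes, translation factors (21 genes) -1.17 and 0.06, and proteasome and antigen processing (32 genes) -0.95 and 0.24. Both TAM values lay below both PEC values for 24 of the 26 ribosomal genes, against 27.7% of all. Rps14, for example, read -1.76 and -0.55 in TAM and 2.37 and 1.56 in PEC.

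**Figure D4:**
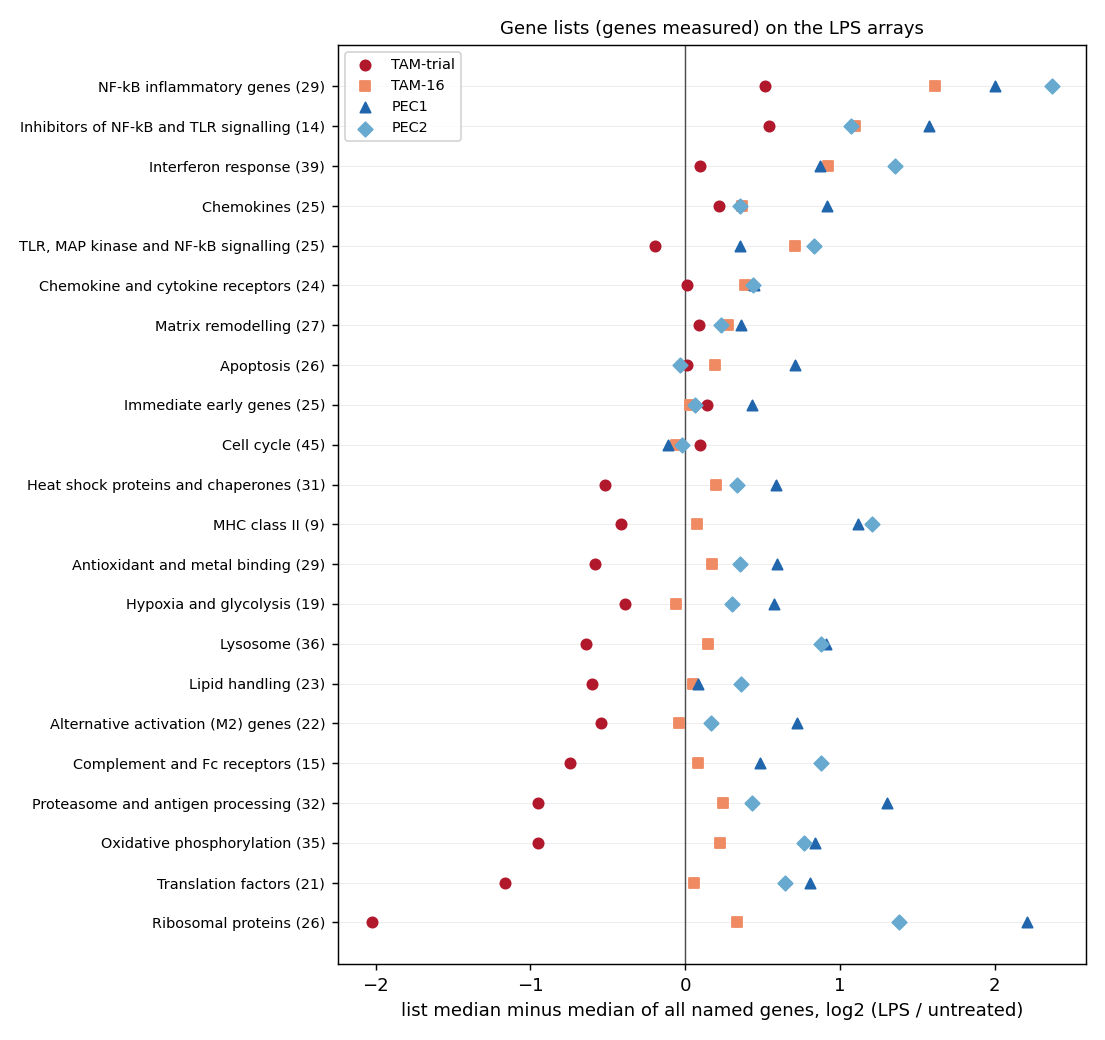
Median log2 ratio (LPS over untreated) of each gene list minus the median of all named genes on that array, for both TAM and both PEC arrays; the number of genes measured stands in brackets. The NF-kB list lies above all genes on every array, while ribosomal proteins lie 2.02 below all genes on TAM-trial and above on the other 3.

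Among the 6 largest opposite values were those of Clcn3, a chloride transporter of endosomes (6.01 on TAM-trial and -2.58 on TAM-16), and Ndufa2, of respiratory complex I (4.912 and -1.995). Perm1 read 2.27 and -4.32, Snapin, of the SNARE machinery, 2.18 and -5.61, Ctsm, a placental cathepsin, 2.53 and -2.88, and AA467197 -1.98 and 2.02. For Clcn3, Perm1 and Ndufa2 the value on TAM-16 was a whole-number ratio. Such genes were as many as 132, beside the 207 with a shared direction.

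Further lists stayed near all genes or split. Matrix remodelling (27 genes) read 0.09 and 0.28, and immediate early genes (25) 0.14 and 0.03, the latter list turning to -0.28 and -0.05 with position effects subtracted. Among its members Nr4a1, an orphan nuclear receptor, read 0.81 and 0.77 and Gadd45g -1.26 and -0.80. Apoptosis genes (26) read 0.01 and 0.19, with Pmaip1, encoding Noxa, at -0.84 and -1.08. Cell cycle genes (45) read 0.10, or -0.11 with position effects subtracted, and -0.06, with 15 above and 15 below the median of all genes on both arrays. Among them Cdkn1a, the inhibitor p21, read 0.93 and 1.13 in TAM and 1.75 and 2.65 in PEC, without overlap. Lysosome genes (36), antioxidant and metal-binding genes (29), heat shock proteins (31) and complement and Fc receptors (15) were 0.52 to 0.74 below all genes on TAM-trial and 0.08 to 0.20 above on TAM-16. C1qb, of the complement C1 complex, read -1.40 and -0.29 in TAM and 2.13 and 1.38 in PEC. The 4 measured MHC class I genes read -0.59 and 0.69.

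Markers of cell types were read as differences only. The 12 measured macrophage markers had a median 1.38 below all genes on TAM-trial, where 0 of 12 were above, and 0.31 above on TAM-16, where 10 of 12 were. Cd68, a lysosomal glycoprotein of macrophages, read -3.14 and -0.15, and 1.88 and 1.42 in PEC. Sirpa, the receptor of CD47, was even in TAM at -0.95 and -0.97, with 0.83 and 1.49 in PEC. For TAM over PEC the macrophage median, here not relative to all genes, was -0.83 on TAM-8 and -1.05 on TAM7, of the print of TAM-trial. On the other print it was -0.91, -1.17, 0.17 and -0.10 on TAM-b, TAM1, TAM-2R and TAM-3. The medians of all named genes on these arrays lay between -0.125 (TAM-3) and 0.058 (TAM-8). Neutrophil markers (12 genes) were 0.31 and 0.27 above all genes with LPS and fibroblast markers (19) 0.13 and 0.19. T and NK cell markers (13) read 0.41 and -0.34, B cell markers (10) -0.03 and 0.01, dendritic cell markers (5) 0.89 and 0.04, endothelial markers (9) 0.46 and -0.06, epithelial and tumour markers (10) 0.62 and 0.07, mast cell and eosinophil markers (5) 0.41 and -0.28, and peritoneal macrophage markers (9) -0.29 and 0.15. Once position effects were subtracted, the dendritic and B cell medians on TAM-trial turned to -0.21 and 0.01, and the epithelial and tumour median on TAM-16 to -0.10. Eng, an endothelial co-receptor also made by macrophages, was the only endothelial marker 2-fold higher on both (1.66 and 1.13). The part of cell makeup in the results was not tested.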

How the data were processed

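Log ratios of 2-colour cDNA arrays were read as channel 2 over channel 1. The authors deposited 1 log2 ratio per feature and array, with no channel intensities; which dyes, image analysis, background correction and normalization were used is not given in the sources used here. The base was taken as 2 from the values, since pile-ups on TAM-16 lie exactly 1 apart. Arrays whose channel 1 held TAM and channel 2 PEC were turned. Of 9596 features, 7486 had 1 gene symbol in the platform annotation, 483 several and 1627 none. No value was missing and no filter on dim spots was possible.

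limma 3.58.1 (R 4.3.3; lmFit, eBayes) was fitted to all 10 arrays, with 1 mean for each of 4 direct comparisons and 6 residual degrees of freedom. Tests were two-sided, with Benjamini-Hochberg adjustment over 8905 genes and features and a threshold of 0.05. The fit was tested on simulated data.

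Genes named are the 12 highest and 12 lowest by the smaller absolute ratio of both TAM arrays among genes with 1 sign, the panel, the 6 largest opposite values, and up to 4 members of each list ranked likewise; Icam1, Traf1 and Zfp764 were added after their values were seen. Members and lists were chosen with earlier results of these data known. Position effects are medians over features at the same place in groups of 96 feature numbers. Alternatives covered threshold, scaling, centring, position, dye terms, model and single arrays. The number of arrays limits the precision.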

Additional observations from a re-analysis of the deposited data

Results flagged for a closer look

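Some results had both TAM arrays on one side of 0 and both PEC arrays on the other. Those below are examples, and other genes named above, such as Cd74, Cd68, Rps14, C1qb, Adam8 and Lpl, showed the same pattern. Pnn was 4.12 higher in TAM on the log2 scale, with a standard error of 0.70 and an adjusted p of 0.505 in limma. Abitram was lower in TAM, with a difference of -4.93 and an adjusted p of 0.719, where its PEC1 value was the most frequent one of that array, and so was Fut7, with -3.14 and 0.719. Ccl7 differed by -2.02, with an adjusted p of 0.881; its TAM-16 value of -0.02 lay next to 0, and its TAM mean was 0.56 with a dye term. Retnla differed by -2.77, with an adjusted p of 0.719, but its TAM value was 0.045 in the loop fit and 2.69 along the second route. None of these differences passed limma's test over 8905 genes and features.

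The medians of 2 lists showed the same pattern relative to all named genes. The alternative activation list differed by -0.74 between the mean medians of TAM and PEC, and the hypoxia and glycolysis list by -0.66. The differences of the lists were not tested, and both lists had TAM-16 medians within 0.06 of all genes. With position effects subtracted the TAM-16 medians turned to 0.08 and 0.11, so the pattern was not kept.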

How the results depend on the processing

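In TAM, limma passed 1 gene (Pnn) once the arrays were scaled and from 0 to 3 with 1 array left out, the 3 being Zfp764 and 2 unnamed features without TAM-16; the other settings run passed 0, with the lowest adjusted p per setting between 0.109 and 0.985. The difference of TAM minus PEC passed 35 genes and features with a dye term for each print (34 higher in TAM, 1 lower) and from 0 to 47 with 1 array left out: 47 without PEC1 (45 higher), 19 without PEC2 (15 higher), 1 without TAM-16 and 0 for each of the other 7. A lone array is then assumed to vary like the other groups. The cause of these changes was not tested.

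Genes higher on both TAM arrays numbered 359 at 1.5-fold, 7 at 4-fold, 124 after scaling and 41 with position effects subtracted; 50 and 23 of the 76 remained under these last 2 settings. Genes lower on both numbered 597 at 1.5-fold, 6 at 4-fold, 74 after centring and 68 with position effects subtracted; 74 and 34 of the 131 remained. With 1 TAM array alone the counts lay between 251 and 1023 higher and between 703 and 1211 lower. Leaving out whole-number ratios, chosen after seeing the data, left 66 and 118. For single genes and lists under the settings that keep both TAM arrays, 558 of 762 values moved by less than the spread between the TAM arrays and 204 by more. The 12 highest and 12 lowest genes kept the sign of their mean under all 6 of these settings. Of the 31 panel genes, 16 did not under at least 1: Il12b, Cd86, Ccl2, Ccl7, Cxcl9, Irf1, Slpi, Mrc1, Retnla, Vegfa, Hif1a, Plaur, Sod2, Tlr2, Myd88 and Tgfb1. Signal over background was not used here, so dim spots limit all ratios. No paired analysis was possible because the replicate numbers of the TAM and PEC arrays name arrays and not shared samples.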
